A study of Mus musculus with 4 samples.

Results

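The 8 genes described here encode the known structural proteins of the mouse synaptonemal complex: Sycp2 and Sycp3 of the axial elements, Sycp1 of the transverse filaments, and Syce1, Syce2, Syce3, Tex12 and 4930447C04Rik of the central element. They were picked by symbol from the 32285 genes listed in 1 single-cell count matrix, and each symbol matched 1 row. The gene listed as 4930447C04Rik encodes SIX6OS1. The study asked what follows in the testis when ZNHIT1, a subunit of the SRCAP complex that places the histone variant H2A.Z in chromatin, is depleted in germ cells. Its 4 libraries of dissociated mouse testis, made with droplet-based 3′ chemistry, comprise a Znhit1 knockout and a control at postnatal day 35, and a Znhit1 knockout and a control at postnatal day 16, with 1 library each. The counts used are those of the knockout at day 35. Counts of the 3 remaining libraries were not analysed here, so every comparison lies between cells of 1 knockout library and says nothing of knockout against control. The Cre driver, the allele, the strain and the number of animals pooled are not given in the sources used here.

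During meiotic prophase each pair of sister chromatids folds along a protein axis, the axial element, which is called the lateral element once homologous chromosomes are joined. SYCP1 molecules then bridge the lateral elements like the teeth of a zipper, and central element proteins hold their overlapping ends together in the midline. In mouse spermatocytes the axes form in leptotene, the zipper closes through zygotene, chromosomes stay fully synapsed through pachytene, and the structure comes apart in diplotene.

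The cells of the library supplied the stages. Of 15306 deposited barcodes, 7856 passed the filters on genes, unique molecular identifiers (UMIs, each marking 1 captured RNA molecule), mitochondrial RNA and doublets, with a median of 4607 UMIs. Clustering, done without the 8 genes, gave 9 clusters of germ cells (4390 cells), numbered here by their order along a diffusion pseudotime that starts in the Gfra1-rich cluster. Clusters 1 to 3 (1612 cells) were spermatogonium-like, clusters 4 to 6 (1933 cells) early-prophase-like and clusters 7 to 9 (845 cells) pachytene-like, by markers that exclude the 8 genes. Cluster 7 carried its name narrowly, with a score of 0.639 for pachytene against 0.622 for later spermatocytes and 6 of 13 pachytene markers at least 2-fold above other cells. No cluster was named spermatid-like. Median UMIs per cell in clusters 1 to 9 were 12227, 7339, 3629, 4134.5, 4171, 4709.5, 6605, 10767.5 and 20436.5, so depth moved with stage; its part in the results was not tested beyond the values per cell given further on. The summed level of 8 Sertoli markers in the germ clusters lay between 485 and 1384 CPM, against 3193 CPM in somatic-like cells, with 1 marker at 0 in cluster 1 and none at 0 in clusters 2 to 9; its part in the results was not tested. Znhit1 itself was counted at 2.49 CPM (1.97 to 3.10) in the germ cells, against 15.5 CPM (13.6 to 17.5) in the 3337 somatic-like cells. The barcodes of the library were shared with the other 3 libraries in 57, 66 and 81 cases.

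The 8 genes lie on 8 chromosomes of mm10. In the GENCODE annotation, with exons counted in the longest coding transcript, Sycp2 occupies chr2:178345293-178407685, minus strand, 44 exons, and Sycp3 chr10:88459569-88473236, plus strand, 8 exons. Sycp1 occupies chr3:102818499-102936100, minus strand, 33 exons. Among the central element genes, Syce1 occupies chr7:140777229-140787852, minus strand, 13 exons, Syce2 chr8:84872111-84888221, plus strand, 5 exons, and Syce3 chr15:89390174-89410503, minus strand, 3 exons. Tex12 occupies chr9:50556819-50561325, minus strand, 5 exons, and 4930447C04Rik chr12:72881109-72940774, minus strand, 18 exons. No member overlaps a gene on its own strand. Sycp1, Sycp3, Syce1, Syce2, Tex12 and 4930447C04Rik overlap genes on the opposite strand, Six6 among them for 4930447C04Rik and Il18 for Tex12, and the sources used here do not state whether counting used the strand. A pseudogene of Sycp1, Sycp1-ps1, is annotated, so Sycp1 reads could in part be split with it.

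Start-site windows were read for what these genes share beyond the complex. RefSeq windows of 300 bases, 250 before and 50 after each annotated gene start (GRCm38.p6, the mm10 assembly), were found for all 8 genes, with 2 windows each for Syce2 and Syce3. The hexamer CACGTG, an E-box with a CG core that reads the same on both strands, stood in windows of 5 of the 8 genes. Counted by window it was in 5 of the 10 member windows, against 7.15% of all 32851 mouse windows. It was chosen after the windows had been read. The windows that hold it are printed 5′ to 3′ on the strand of the gene, with CACGTG in capitals.
Sycp3, chr10:88459337-88459636, plus strand: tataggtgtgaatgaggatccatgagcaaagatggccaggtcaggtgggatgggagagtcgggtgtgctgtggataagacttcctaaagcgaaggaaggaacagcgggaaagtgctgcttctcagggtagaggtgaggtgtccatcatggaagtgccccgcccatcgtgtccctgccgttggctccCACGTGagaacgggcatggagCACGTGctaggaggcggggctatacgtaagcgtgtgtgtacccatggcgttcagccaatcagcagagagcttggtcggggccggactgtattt
Sycp1, chr3:102936051-102936350, minus strand: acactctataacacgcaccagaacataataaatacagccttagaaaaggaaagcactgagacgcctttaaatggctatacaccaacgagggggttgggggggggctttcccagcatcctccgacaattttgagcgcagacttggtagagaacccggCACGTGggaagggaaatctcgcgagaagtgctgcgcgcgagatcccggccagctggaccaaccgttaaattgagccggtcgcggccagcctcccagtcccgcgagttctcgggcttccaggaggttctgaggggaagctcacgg
Syce2, chr8:84872008-84872307, plus strand: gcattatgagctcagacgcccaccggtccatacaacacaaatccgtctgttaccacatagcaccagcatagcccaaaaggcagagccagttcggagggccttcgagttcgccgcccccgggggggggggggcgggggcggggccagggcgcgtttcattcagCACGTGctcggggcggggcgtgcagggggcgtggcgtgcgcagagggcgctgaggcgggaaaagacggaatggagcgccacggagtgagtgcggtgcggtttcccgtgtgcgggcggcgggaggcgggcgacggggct
Tex12, chr9:50561219-50561518, minus strand: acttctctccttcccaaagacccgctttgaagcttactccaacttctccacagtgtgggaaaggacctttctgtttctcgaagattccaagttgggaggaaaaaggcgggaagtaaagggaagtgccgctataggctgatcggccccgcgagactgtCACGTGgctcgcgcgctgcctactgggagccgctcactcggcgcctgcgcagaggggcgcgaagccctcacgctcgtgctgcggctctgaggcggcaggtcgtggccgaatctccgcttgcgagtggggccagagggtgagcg
4930447C04Rik, chr12:72917716-72918015, minus strand: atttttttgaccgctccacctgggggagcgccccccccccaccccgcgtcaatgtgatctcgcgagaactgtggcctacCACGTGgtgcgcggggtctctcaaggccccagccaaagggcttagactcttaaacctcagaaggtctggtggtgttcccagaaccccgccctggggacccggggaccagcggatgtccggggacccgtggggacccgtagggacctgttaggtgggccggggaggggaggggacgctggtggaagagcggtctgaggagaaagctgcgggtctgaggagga
The hexamer begins 94, 88 and 93 bases before the start in Sycp1, Syce2 and Tex12, 171 bases before it in 4930447C04Rik, and 64 and 43 bases before it in Sycp3, the window with 2 copies. The RefSeq start used for 4930447C04Rik lies inside the GENCODE gene, downstream of its GENCODE start. The windows of Sycp2, Syce1 and Syce3 do not contain these letters. Of 4 other motifs searched on both strands, CNCCTCAG, reported for STRA8 and MEIOSIN, matched 4 of the 8 genes (Sycp1, Syce2, Tex12 and 4930447C04Rik). It was in 4 of the 10 member windows and 7.94% of all windows. TCCCGC, the core of E2F sites, matched 4 of 8 genes (Sycp1, Sycp3, Syce2 and Tex12), 5 of the 10 member windows and 19.98% of all windows. GCGCATGC, a part of NRF1 sites, matched Syce1 and 2.71% of all windows, and TGACGTCA, the cAMP response element, matched no member and 1.79% of all windows. Matches of different motifs overlapped at 1 place, in Syce2. Member windows held 54.7% to 69.3% G and C, and the shares over all windows are not matched for base composition. A match describes letters in a window and does not show that a factor binds there.

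Levels are given in CPM, the UMIs of a gene divided by the UMIs of all genes and scaled to 1000000, summed over the cells of a cluster, followed in brackets by an exact 95% Poisson interval. With 1 library there are no replicates: these intervals cover counting error only, no test between stages was possible, and no p-value is given. Levels of different genes are not compared, since each gene is followed against its own peak.

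Both axial element genes were low in spermatogonium-like cells and more than 1000 CPM at their height, but they did not peak together. Sycp2, a scaffold of the axial and lateral elements, was at 119.6, 129 and 256 CPM in clusters 1 to 3, 744, 1442 and 1377 CPM in clusters 4 to 6, and 1384, 1264 and 745 CPM in clusters 7 to 9. Its level in cluster 5, 1442 CPM (1399 to 1486), was 12.1 times that in cluster 1. The cluster 1 level was below the 217 CPM of Sertoli-like cells and is not read as expression, as described further on. Clusters 7 and 6 did not differ beyond counting error, at a ratio of 1.01 (0.962 to 1.05), so Sycp2 held a plateau across the border of early prophase and pachytene. In cluster 9 it was 1.70-fold lower (1.62 to 1.78) than in cluster 8.

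Sycp3, the partner of SYCP2 that coats the chromosome axis, was at 318, 326 and 464 CPM in clusters 1 to 3, 1434, 2292 and 2828 CPM in clusters 4 to 6, and 4302, 3354 and 1498 CPM in clusters 7 to 9. Its highest level was in the first pachytene-like cluster, at 4302 CPM (4227 to 4377), where Sycp2 had already levelled off. Between neighbouring clusters the largest ratio of Sycp3 was 3.09 (2.89 to 3.31), cluster 4 over cluster 3, at the border of spermatogonia and early prophase. A later step separated cluster 7 from cluster 6, at a ratio of 1.52 (1.48 to 1.56). In the last cluster Sycp3 was 2.24-fold lower (2.17 to 2.31) than in cluster 8 and at 34.8% of its peak.

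Sycp1, the transverse filament gene, was higher in each cluster than in the one before as far as cluster 6. It stood at 575, 759 and 1277 CPM in clusters 1 to 3, 1737, 3504 and 4483 CPM in clusters 4 to 6, and 4083, 3737 and 1969.8 CPM in clusters 7 to 9. The 5 ratios between these neighbours lay above 1 with their intervals, between 1.28 (1.25 to 1.31) for cluster 6 over cluster 5 and 2.02 (1.95 to 2.08) for cluster 5 over cluster 4. Sycp1 was already at 1277 CPM (1231 to 1324) in cluster 3, the last of the spermatogonium-like clusters. Its peak was 4483 CPM (4408 to 4559) in the last early-prophase-like cluster, and it was 1.90-fold lower (1.84 to 1.95) in cluster 9 than in cluster 8.

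Among the central element genes, Syce2 and Tex12, whose proteins assemble with each other into fibres, both peaked in cluster 5. The peak there was not particular to this pair, since Syce3 and Sycp2 peaked in cluster 5 too. Syce1 had its first maximum over clusters 4 and 5, which did not differ beyond counting error, at a ratio of 1.07 (0.976 to 1.17). Syce2 was at 322, 352 and 287 CPM in clusters 1 to 3, 921, 1475 and 504 CPM in clusters 4 to 6, and 439.6, 273 and 206 CPM in clusters 7 to 9. Its maximum of 1475 CPM (1432 to 1520.0) was narrow: cluster 4 was lower, at 921 CPM (888 to 954), and cluster 6 was 2.92-fold lower (2.76 to 3.10) than cluster 5. From cluster 6 on, each later cluster was lower than the one before it, and cluster 9 with 206 CPM (191 to 221) was below cluster 1 with 322 CPM (305 to 339).

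Tex12 was at 145, 117 and 247 CPM in clusters 1 to 3, 694, 775 and 456 CPM in clusters 4 to 6, and 305, 410.2 and 369.7 CPM in clusters 7 to 9. Clusters 5 and 4 differed little, at a ratio of 1.12 (1.05 to 1.18), and cluster 6 was 1.70-fold lower (1.59 to 1.82) than cluster 5. Unlike Syce2, it was higher again in cluster 8 than in cluster 7, at a ratio of 1.35 (1.24 to 1.46), and ended at 47.7% of its peak.

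Syce1, which with SIX6OS1 and SYCE3 acts where SYCP1 ends meet, had 2 maxima with a trough between them. It was at 62.5, 96.1 and 123 CPM in clusters 1 to 3, 301, 322 and 95.8 CPM in clusters 4 to 6, and 185, 229.6 and 409.9 CPM in clusters 7 to 9. The trough lay in cluster 6, 3.36-fold lower (2.94 to 3.85) than cluster 5 and with 289 UMIs counted there. Thereafter each cluster was higher than the one before, and the highest level was in the most advanced cells, at 409.9 CPM (389.7 to 431). In cells thinned to 1000 UMIs each, 26.4% of cluster 5, 8.33% of cluster 6 and 20.3% of cluster 9 kept a Syce1 UMI (before thinning 69.8%, 35.2% and 92.4% had one), so the trough was also seen at equal depth. At that depth cluster 9 was not above cluster 5, and the intervals of the 2 shares overlapped, 14.3% to 27.4% and 23.0% to 29.9%.

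4930447C04Rik was at 203, 253 and 433 CPM in clusters 1 to 3, 875, 897 and 1094 CPM in clusters 4 to 6, and 627, 305 and 169 CPM in clusters 7 to 9. It peaked in cluster 6, at 1094 CPM (1057 to 1132), the very cluster in which Syce1 was in its trough. Each later cluster was lower than the one before: cluster 7 was 1.75-fold lower (1.65 to 1.85) than cluster 6, cluster 8 was 2.06-fold lower (1.91 to 2.22) than cluster 7, and cluster 9 was 1.80-fold lower (1.63 to 1.99) than cluster 8.

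Syce3, the smallest of the central element genes by transcript length, was at 124, 99.2 and 115 CPM in clusters 1 to 3, 301, 529 and 447 CPM in clusters 4 to 6, and 418, 443 and 279 CPM in clusters 7 to 9. It was highest in cluster 5, at 529 CPM (503 to 556). After a small step down it stayed level, since clusters 7 and 6 differed by a ratio of 0.934 (0.864 to 1.01) and clusters 8 and 7 by 1.06 (0.984 to 1.14), both within counting error. Cluster 9 was 1.59-fold lower (1.47 to 1.72) than cluster 8.

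**Figure D1:**
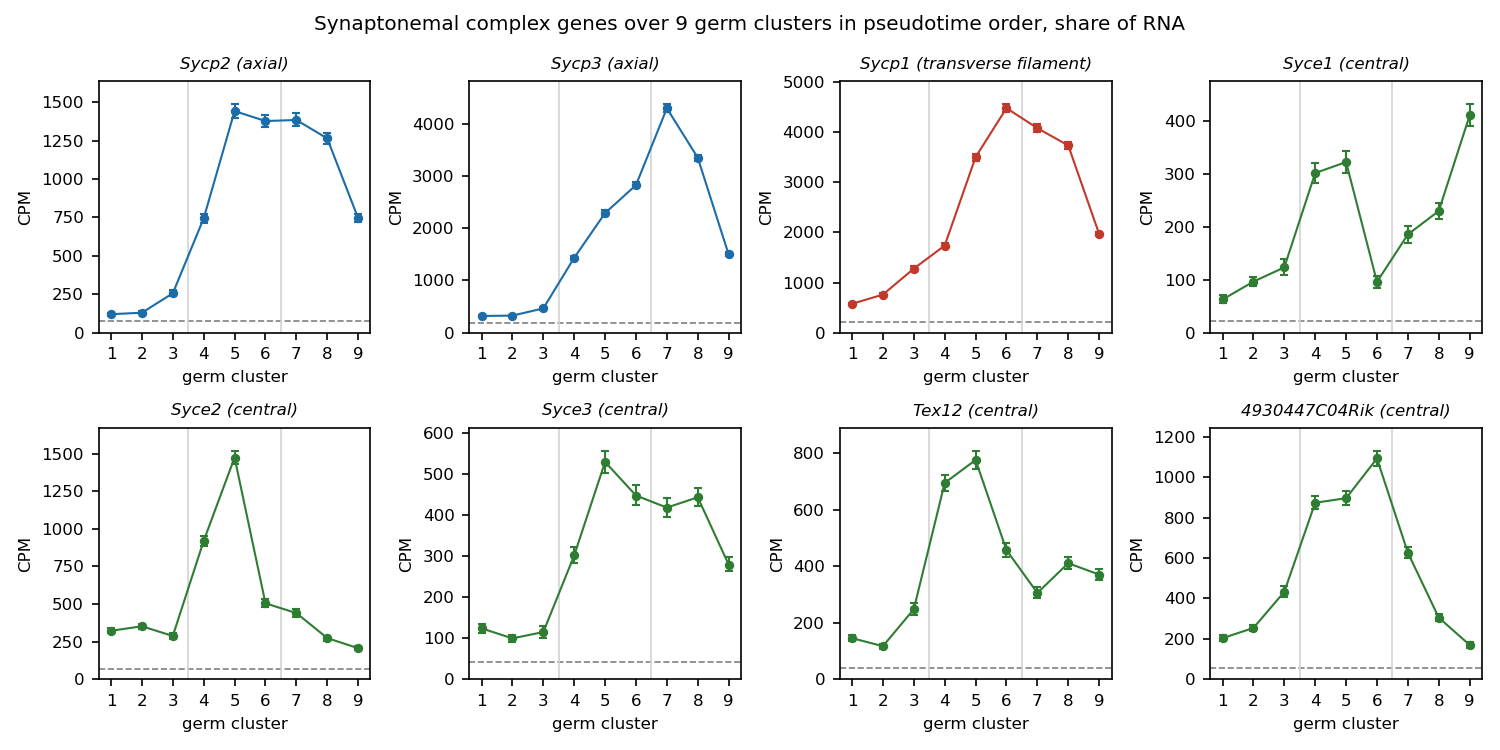
Level of each synaptonemal complex gene in the 9 germ clusters, in CPM of summed UMIs (vertical axis from 0, own scale per gene), with clusters in pseudotime order on the horizontal axis. Points are clusters of 1 library, bars are exact 95% Poisson intervals (counting error only), dashed lines are the somatic-like level, and grey vertical lines separate spermatogonium-like, early-prophase-like and pachytene-like clusters. Sycp2, Syce2, Syce3 and Tex12 peak in cluster 5, Sycp1 and 4930447C04Rik in cluster 6, and Sycp3 in cluster 7. Syce1 has a first maximum over clusters 4 and 5 and a second in cluster 9.

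In cluster 1 all 8 genes were above the level of all somatic-like cells pooled, but Sycp1, Sycp2 and Sycp3 were not above that of Sertoli-like cells. In cluster 1 the ratio to somatic-like cells was between 1.53 for Sycp2 and 4.87 for Syce2, and in the first of 20 pseudotime bins the lower bound of each gene was already above the upper bound in somatic-like cells. In droplet data free RNA gives UMIs in cells that do not express a gene. Leydig-like cells, which should lack these transcripts, carried 108 CPM of Sycp1, 80.0 CPM of Sycp3 and 11.9 CPM of Syce1. A Sycp1 UMI was found in 96.9% of cluster 1 cells at a median of 12227 UMIs, and in 45.5% of Leydig-like cells at a median of 8980.5 UMIs. After thinning every cell to 1000 UMIs the shares were 41.2% in cluster 1 and 9.12% in Leydig-like cells. Sycp3 was found in 27.7% of cluster 1 cells after thinning and 92.5% before it, against 7.69% of Leydig-like cells after thinning and 40.7% before it. For Syce1 the shares were 4.72% after and 55.7% before thinning in cluster 1, against 0.769% and 9.45% in Leydig-like cells.
Sertoli-like cells, which should also lack these transcripts, held more of them. Sycp1 was at 575 CPM (552 to 598) in cluster 1, against 602 CPM (573 to 631) in the 922 Sertoli-like cells, whose median was 1377.5 UMIs. Sycp2 was at 119.6 CPM (109 to 130.5) in cluster 1, against 217 CPM (200.5 to 235) in Sertoli-like cells. Sycp3 was at 318 CPM (301 to 336) in cluster 1, against 568 CPM (540.3 to 596) in Sertoli-like cells. The other 5 members were higher in cluster 1 than in Sertoli-like cells, with overlapping intervals for Syce1, Syce3 and 4930447C04Rik. The thinned shares in cluster 1 given above were below those in Sertoli-like cells, 44.1% for Sycp1, 45.9% for Sycp3 and 7.48% for Syce1 (before thinning 59.0%, 60.1% and 13.7%). In the deepest Sertoli-like cluster, of 77 cells with a median of 8590 UMIs, the levels were 137 CPM of Sycp1, 31.1 CPM of Sycp2 and 73.5 CPM of Sycp3. In the shallowest Sertoli-like cluster, of 648 cells, Syce1 was at 100 CPM, Syce3 at 195, Tex12 at 191 and 4930447C04Rik at 214 CPM. These were above the cluster 1 levels, while Syce2, at 273 CPM, was below its own. Sycp1 was at 921 CPM there, and Sycp2 at 312 and Sycp3 at 992 CPM were above their levels in clusters 1 to 3. Levels in clusters 1 to 3 that do not exceed those of Sertoli-like cells, and the shares of cells given here, are therefore not read as expression.

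Set against all genes, the step into early prophase was shared by the whole set. All 8 members were at least 2-fold higher in early-prophase-like than in spermatogonium-like cells, where 12.4% of the 15631 genes measured in both were. Over the 8 members the median log2 ratio was 1.97, with a range of 1.42 to 2.97, beside a median of -0.26 over all genes. The axial element genes led, with Sycp2 7.85-fold (7.47 to 8.25) higher at 1173 CPM in early-prophase-like cells against 149.5 CPM in spermatogonium-like cells. Sycp3 was 6.20-fold (6.004 to 6.41) higher, at 2164 CPM in early-prophase-like cells against 349 CPM in spermatogonium-like cells. Both spermatogonium-like levels were below those of Sertoli-like cells, 217 CPM of Sycp2 and 568 CPM of Sycp3, and the intervals do not cover free RNA. With the free RNA of Leydig-like cells subtracted, the log2 ratio was 3.40 in place of 2.97 for Sycp2 and 2.98 in place of 2.63 for Sycp3. Sycp1 was 4.04-fold (3.95 to 4.13) higher.
In the central element the ratios ran below those of the axial genes, with Tex12 at 4.27-fold (4.05 to 4.50), Syce3 at 3.82-fold (3.59 to 4.07) and 4930447C04Rik at 3.54-fold (3.40 to 3.68). Syce2 at 2.92-fold (2.81 to 3.03) and Syce1 at 2.68-fold (2.49 to 2.88) were the smallest. The spermatogonium-like level of Syce3, 110 CPM, was not above the 115 CPM of Sertoli-like cells. Those of Sycp1, Syce1 and Tex12, at 793, 89.7 and 150 CPM, were below the shallowest Sertoli-like cluster, at 921, 100 and 191 CPM. Those of Syce2 and 4930447C04Rik, at 329 and 270 CPM, were above its 273 and 214 CPM. The intervals of these ratios do not cover free RNA either.

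The step into pachytene divided the set. Relative to early prophase, 2 of the 8, Syce2 and 4930447C04Rik, were lower by 2-fold or more in the pachytene-like cells, where 26.7% of the 14825 genes measured in both were, and no member was higher by as much, where 20.6% were. The count of lower members is thus near the share over all genes. Syce2 was at 295 CPM in pachytene-like cells against 961 CPM in early-prophase-like cells, 3.25-fold lower (3.12 to 3.39). 4930447C04Rik was at 346 CPM in pachytene-like cells against 954 CPM in early-prophase-like cells, 2.75-fold lower (2.65 to 2.86). Tex12 was 1.75-fold lower (1.68 to 1.83), short of the 2-fold line.
The other members stayed close to their early-prophase level. Sycp1 was at a pachytene over early-prophase ratio of 1.0 (0.985 to 1.02) and Sycp2 at 0.947 (0.922 to 0.972). Syce3 was at 0.894, Syce1 at 1.17 and Sycp3 at 1.36 (1.34 to 1.39), the highest of the set. With each cell of equal weight the sign of 2 log2 ratios turned, to -0.06 from 0.23 for Syce1 and to 0.06 from -0.08 for Sycp2.

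Peaks before pachytene were found for 6 of the 8 members, all but Sycp3 and Syce1, where 70.5% of 16962 genes peaked there. The peaks of these 6 lay in the early-prophase-like clusters, where 26.7% of all genes had theirs. In germ cells as a whole, all 8 were at least 2-fold higher than in somatic-like cells, where 37.7% of 18483 genes were, with ratios between 7.01 for Syce3 and 10.6 for Sycp1.

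**Figure D2:**
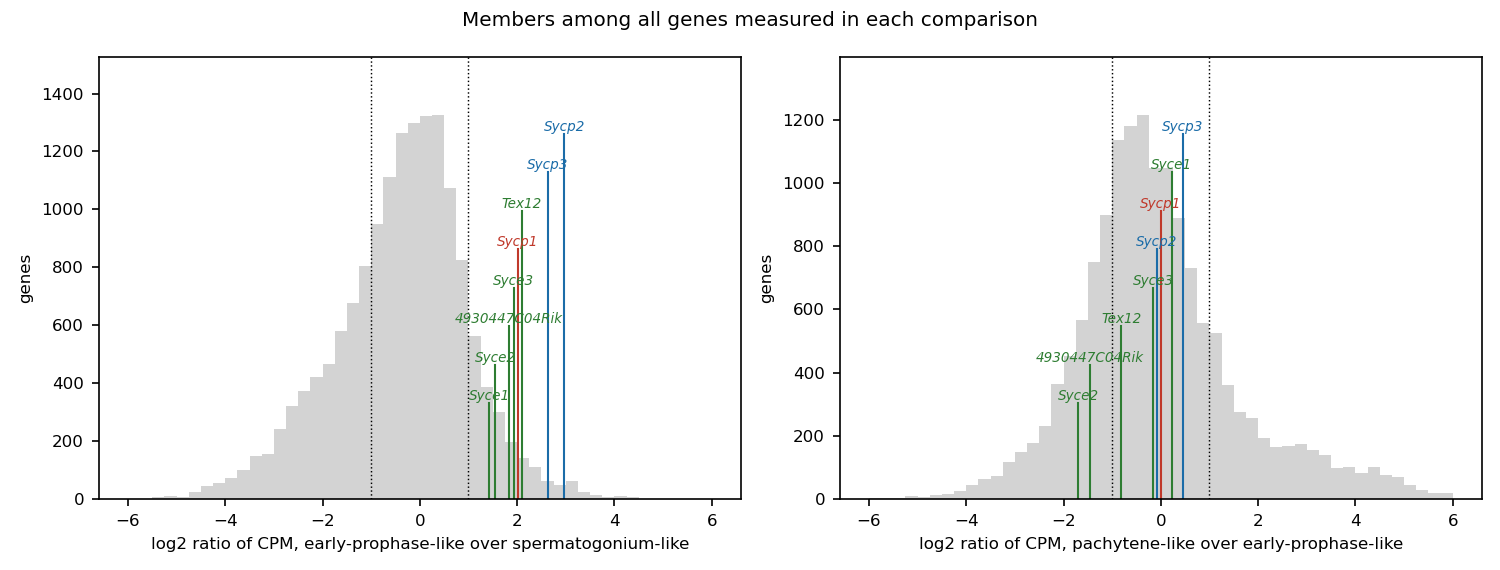
Log2 ratios of CPM over all genes with at least 20 UMIs in both classes together (grey bars, genes per 0.25 log2 units), with the 8 members as lines coloured by element (blue axial, red transverse, green central; line height only separates the labels). The left panel sets early-prophase-like over spermatogonium-like cells, the right panel pachytene-like over early-prophase-like cells; dotted lines mark 2-fold, all 8 members lie right of it on the left panel, and Syce2 and 4930447C04Rik lie left of it on the right panel.

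CPM is a share of the RNA captured, and the late cells were the deepest. Counted as UMIs per cell, most members were highest in the pachytene-like clusters. Sycp1 was at 7.66, 6.11 and 5.25 UMIs per cell in clusters 1 to 3, 8.23, 15.9 and 22.5 UMIs per cell in clusters 4 to 6, and 30.5, 48.0 and 46.8 UMIs per cell in clusters 7 to 9. Sycp3 was at 14.2 UMIs per cell in cluster 6, 43.0 in cluster 8 and 35.6 in cluster 9. Sycp2 was highest in cluster 9 on this scale, with 17.7 UMIs per cell there and 6.56 in cluster 5. Syce1 had 1.47 UMIs per cell in cluster 5, 0.482 in cluster 6 and 9.75 in cluster 9, so its trough and second maximum stood on both scales.
Syce2 and 4930447C04Rik, 2 of the 8, peaked before pachytene on both scales, where 47.7% of all genes had their highest UMIs per cell before it. Syce2 had 6.71 UMIs per cell in cluster 5, 2.54 in cluster 6 and 4.89 in cluster 9. For 4930447C04Rik the values were 4.03 UMIs per cell in cluster 9 and 5.50 in cluster 6. Tex12 reached 8.79 UMIs per cell in cluster 9, above its 3.53 in cluster 5, and Syce3 6.63, above its 2.41 in cluster 5.

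With UMIs per cell, 6 of 8 members were at least 2-fold higher in early-prophase-like than in spermatogonium-like cells, where 4.80% of all genes were; Syce1 at 1.66 and Syce2 at 1.80 times were the exceptions. No member was at least 2-fold lower at that step, where 48.2% of all genes were. Pachytene-like cells had 5 of 8 members higher by 2-fold or more than early-prophase-like cells, where 53.5% of all genes were, and none lower by as much, where 5.43% were. Against somatic-like cells, germ cells had all 8 members higher by 2-fold or more, where 51.6% of all genes were, and none lower, where 19.7% were. Fewer molecules of a gene in a cell and a larger total of other RNA thus cannot be told apart from CPM alone, and the lower late CPM of Sycp1, Sycp2, Sycp3, Syce3 and Tex12 was not accompanied by fewer UMIs per cell in cluster 9 than in their CPM peak clusters.

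**Figure D3:**
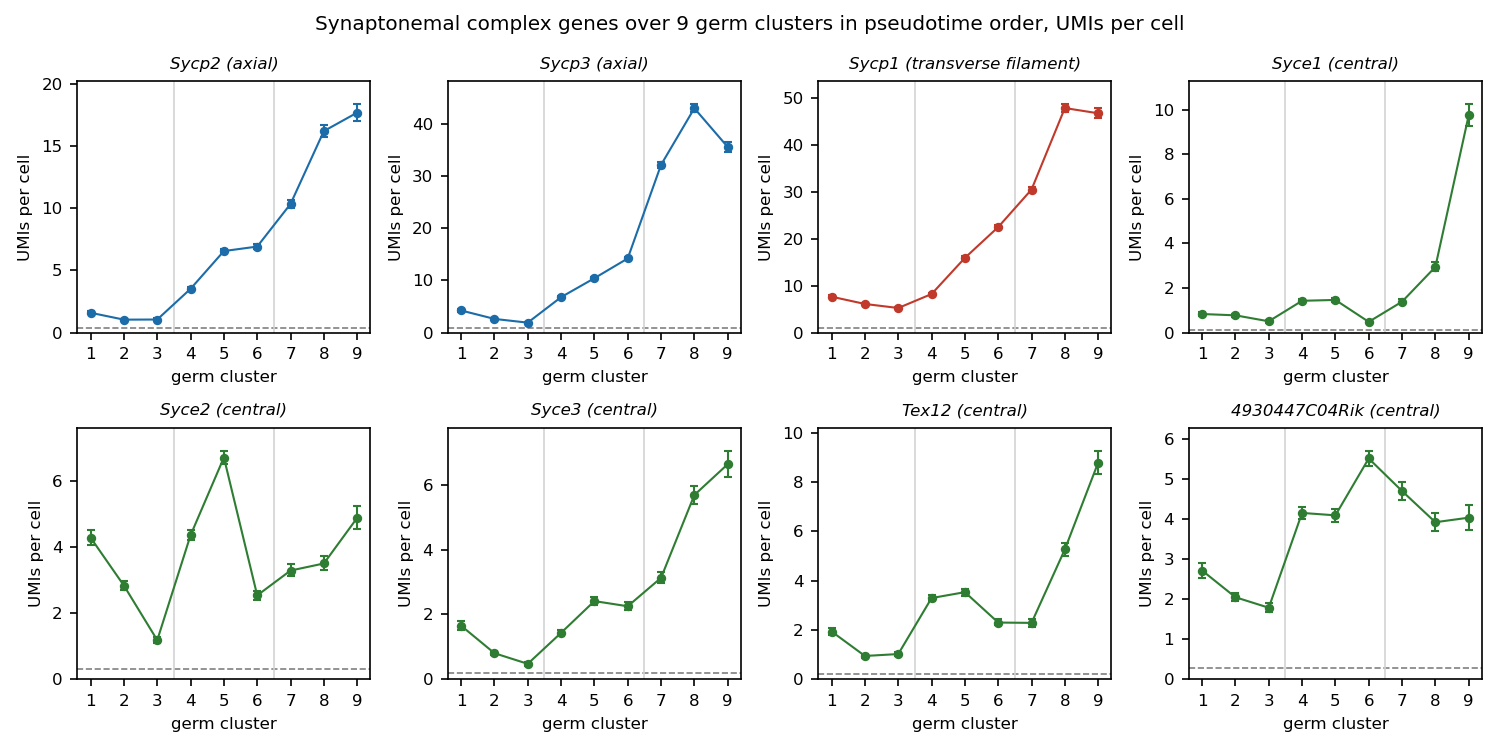
Mean UMIs per cell of each synaptonemal complex gene in the 9 germ clusters (vertical axis from 0, own scale per gene), with exact 95% Poisson intervals (counting error only), dashed lines at the somatic-like level and grey lines between spermatogonium-like, early-prophase-like and pachytene-like clusters. Median depth runs between 3629 UMIs in cluster 3 and 20436.5 UMIs in cluster 9; on this scale Syce2 peaks in cluster 5, 4930447C04Rik in cluster 6, and the other 6 genes in cluster 8 or 9.

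Timing was read more finely along 20 pseudotime bins of 219 or 220 germ cells each. Onset is the first bin of the unbroken run up to the peak at or above 50% of the peak CPM, and decline is the first bin after the peak below 50%. Tex12 and 4930447C04Rik came on first, both in bin 8, in which most cells belonged to cluster 4. Syce2 and Syce3 followed in bin 9, Sycp2 in bin 10, Sycp1 in bin 11 and Sycp3 in bin 12. Of the 5 central element genes, 4 thus had their onset before Sycp2, Sycp3 and Sycp1. Syce1 too first passed 50% of its peak in bin 8, at 59.4%. It fell below that line in bin 15 and is described further on. The order belongs to CPM, to the 50% line and to 20 bins. With 10 bins Sycp2 came on in bin 5 together with Syce2 and Syce3. Tex12 and 4930447C04Rik were still ahead in bin 4, with Sycp1 in bin 6 and Sycp3 in bin 7. On UMIs per cell 4930447C04Rik and Syce2 passed 50% of their peak in bin 9, ahead of Sycp1 in bin 16, Sycp3 in bin 17 and Sycp2 in bin 18, but Syce3 passed it in bin 18 and Tex12 in bin 19. With 25% of the CPM peak as the line the order did not hold either, since Syce1 passed it in bin 4, Sycp1 and 4930447C04Rik passed it in bin 5, Tex12 in bin 6, Sycp2, Syce2 and Syce3 in bin 8 and Sycp3 in bin 9. Bins were filled by order alone, so a bin is not a span of time.

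The peaks came in another order. Tex12 was highest in bin 12 and Syce2 and Syce3 in bin 13. Sycp2 was highest in bin 14, Sycp1 and 4930447C04Rik in bin 16, Sycp3 in bin 17 and Syce1 in bin 20, the last. Several of these peaks were broad: the Tex12 interval overlapped those of 5 other bins (9, 10, 11, 13 and 14), and those of Sycp2 and Syce3 overlapped 4 others each. The Sycp3 profile had a shelf, with 50.2%, 50.9%, 51.3% and 50.3% of its peak in bins 12 to 15 and 81.6% in bin 16. Since its shelf lay at the 50% line, its onset bin rests on small differences.

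Counted from the highest bin of each gene, Syce2 was the first to decline, with 338 CPM in bin 16, against 1396 CPM at its peak in bin 13. Tex12 followed in bin 17, 4930447C04Rik in bin 18 and Sycp3 in bin 20. With 10 bins Sycp3 did not fall below 50%, and stood at 55.6% of its peak in the last of them. In the last of the 20 bins Syce2 was at 12.6% and 4930447C04Rik at 15.9% of the peak, while Sycp1 at 51.8%, Tex12 at 53.6%, Syce3 at 61.4% and Sycp2 at 61.7% were above 50% of it. Tex12 had been below that line in bins 17 and 18, at 44.5% and 40.6%.
Syce1 had no such course. It was at 323 CPM in bin 9, at 96.2 CPM in bin 16 and at 367 CPM in bin 20, so its onset at the 50% line, bin 18, belongs to the second maximum. In the first maximum it was above 50% of its highest bin from bin 8, at 59.4%, to bin 14, at 72.1%. In bin 15 it was at 39.2%, where Syce2 was still at 54.9% of its own peak. At the 25% line the onset of Syce1 was bin 4, since the trough in bin 16 stayed just above that line. The interval at its peak overlapped those of bins 9 and 12 in the first maximum.

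**Figure D4:**
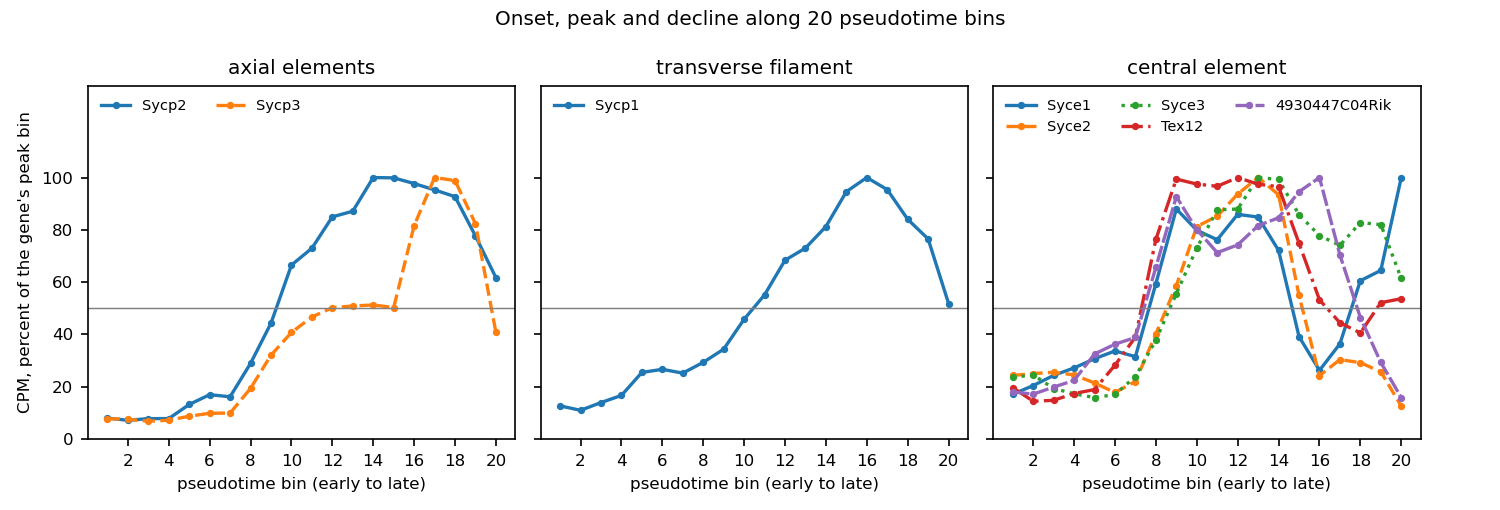
CPM of each member as a percent of its own highest bin (vertical axis) over 20 pseudotime bins of equal cell number (horizontal axis, early to late), in panels for axial elements, transverse filament and central element; the grey line is 50%. Tex12, 4930447C04Rik and Syce1 pass 50% in bin 8 and Sycp3 in bin 12. Syce2 is below 50% again in bin 16. Syce1 is below it in bins 15 to 17, with 26.2% in bin 16, before its highest bin, 20.

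Cells of a cluster also varied among themselves. In cluster 9 the middle 50% of cells had 1136 to 1913 CPM of Sycp3. In cluster 7 that range was 3628 to 4982 CPM, so the quartile ranges of clusters 9 and 7 did not overlap. For Sycp1 the range was 1236 to 3051 CPM in cluster 9 and 3466 to 5192 CPM in cluster 6, again apart. Syce2 had 196 to 732 CPM in cluster 6, and 931 to 1934 CPM in cluster 5. Values per cell rest on few UMIs for Syce1, whose median cell in cluster 6 had none.

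Likeness between profiles was measured as Pearson's r of log2(CPM + 10) over the 20 bins, as a description: the bins come from 1 library and differ in depth. The axial and transverse genes formed the tightest group, with 0.97 for Sycp2 and Sycp1, 0.97 for Sycp3 and Sycp2, and 0.95 for Sycp3 and Sycp1. Syce3 stood with them, at 0.95 with Sycp2 and 0.94 with Sycp3. Syce2 was least like them, at 0.41 with Sycp1 and 0.42 with Sycp3, and its nearest members were Tex12 at 0.75 and 4930447C04Rik at 0.73. Syce1 was nearest to Tex12, at 0.84.
Among 7079 other genes, the profile closest to Sycp2 was that of Atr, the checkpoint kinase of unsynapsed axes, at 0.98, and the closest to Sycp1 that of Hectd4 at 0.98. Oaz2 at 0.99 was closest to Sycp3, followed by Zfp654 at 0.99 and by Rad51ap2 at 0.98, itself a marker used to name the early-prophase-like clusters. Stradb at 0.97 was closest to Syce2, Mdc1 at 0.97 to Syce3, Pde6d at 0.96 to Tex12, Ubxn2a at 0.97 to 4930447C04Rik and Vdac3 at 0.94 to Syce1.

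Proteins that work with the complex gave a frame for these profiles. Of 31 such genes with enough UMIs, 13 were higher by 2-fold or more in early-prophase-like than in spermatogonium-like cells, where 12.4% of all genes were, and 7 were lower by as much, where 28.9% were. In pachytene-like over early-prophase-like cells 7 were higher, where 20.6% of all genes were, and 13 lower, where 26.7% were, so the count of higher genes is near the share over all genes. On UMIs per cell 9 of the 31 were higher by 2-fold or more in early prophase than in spermatogonia, where 4.80% of all genes were, and 10 lower, where 48.2% were; Mei4, Tex11, Ccnb1ip1, Mlh3 and Psma8 turned from higher in CPM to lower. For pachytene over early prophase, on UMIs per cell 16 of the 31 were higher by 2-fold or more in pachytene, where 53.5% of all genes were, and 5 were lower, where 5.43% were. The direction itself turned for 8 genes that were lower in CPM and higher in UMIs per cell: Stag3, Trip13, Msh4, Msh5, Hfm1, Rnf212, Ccnb1ip1 and Hsf2bp. Folds of partner genes below are in CPM unless UMIs per cell are named.
In CPM the cohesins of the meiotic axis were lower in pachytene, while Sycp2 and Sycp3 were within 2-fold of their early-prophase level. Of 5, 4 were lower by 2-fold or more, where 26.7% of all genes were. On UMIs per cell 1 of 5 was, Rad21l, where 5.43% of all genes were. Smc1b, a meiosis-specific cohesin subunit, was at 433 CPM in pachytene-like cells against 1685 CPM in early-prophase-like cells, 3.89-fold lower (3.77 to 4.03). Rad21l, a kleisin of early prophase, was 5.93-fold lower (4.75 to 7.46), and Rec8, the other meiotic kleisin, peaked as early as cluster 3, at 48.4 CPM. Smc3, the cohesin subunit shared with mitotic cells, was 4.13-fold lower (3.91 to 4.37). Stag3, the meiotic STAG subunit, was 1.69-fold lower (1.60 to 1.78) in CPM and 1.54 times higher in UMIs per cell.

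HORMA domain proteins mark unsynapsed axes and are removed by TRIP13 as the complex forms. Hormad1 was 2.05-fold (1.98 to 2.11) higher in pachytene-like cells, at 1246 CPM against 609 CPM in early-prophase-like cells, and peaked in cluster 7, as Sycp3 did. Hormad2, its paralogue, was 4.13-fold (3.75 to 4.56) higher in early-prophase-like than in spermatogonium-like cells and peaked in cluster 8. Trip13 was highest in cluster 2 and 2.43-fold lower (2.18 to 2.72) in early-prophase-like than in spermatogonium-like cells. Ccdc36, Mei4 and Rec114, axis-bound factors of DNA break formation, were 9.29-fold, 39.6-fold and 4.81-fold lower in pachytene than in early prophase, Mei4 on 15 UMIs against 522. On UMIs per cell the 3 were lower too, at ratios of 0.280, 0.0657 and 0.541.
Crossover factors that load on the central region divided in time. Tex11 and Shoc1 were 10.5-fold and 5.36-fold lower in pachytene than in early prophase, and Msh5, Hfm1 and Rnf212 were 2.25-fold, 2.25-fold and 2.45-fold lower. On UMIs per cell Tex11 and Shoc1 were lower as well, at ratios of 0.248 and 0.486, whereas Msh5, Hfm1 and Rnf212 were not, at 1.16, 1.16 and 1.06. Ccnb1ip1, which encodes the crossover regulator HEI10, was 1.89-fold lower (1.67 to 2.14) in CPM, with a ratio of 1.38 in UMIs per cell. Cntd1 and Mlh3, which act late in crossover formation, were 4.61-fold (4.20 to 5.07) and 2.22-fold (1.94 to 2.54) higher. Msh4, at a ratio of 0.906 (0.805 to 1.02), did not differ beyond counting error in CPM and was at 2.36 in UMIs per cell.

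Kinases of complex disassembly, which act at the exit from pachytene, were at their low in early prophase. Of 6 genes in this group, 5 were at least 2-fold lower in early-prophase-like than in spermatogonium-like cells, where 28.9% of all genes were, and the same 5 were on UMIs per cell, where 48.2% were. Aurkb, the chromosomal passenger kinase, was 15.9-fold lower (11.8 to 21.8). Incenp, its scaffold, and Ccnb1, the cyclin of CDK1, were 3.48-fold lower (3.11 to 3.90) and 3.45-fold lower (3.10 to 3.84). The call of Aurkc among them rests on 9 UMIs against 25. Plk1 was 4.79-fold lower (3.95 to 5.84), and its pachytene over early-prophase ratio of 1.09 (0.857 to 1.40) did not differ beyond counting error, with 2.85 in UMIs per cell. Cdk1 was 4.58-fold (4.28 to 4.90) higher in pachytene than in early prophase and peaked in cluster 7. Aurkc was higher too, on 33 UMIs against 9.
Of the other synapsis factors, Psma8, the testis-specific proteasome subunit, was 9.76-fold (8.88 to 10.7) higher in pachytene than in early prophase, with its maximum in cluster 8. Hsf2bp, a partner of BRCA2, was 5.53-fold (4.90 to 6.24) higher in early-prophase-like than in spermatogonium-like cells. Fkbp6 and Skp1a were within 2-fold in both comparisons in CPM, and in UMIs per cell they were at 3.69 and 3.76 times their early-prophase level in pachytene.
The paralogue Syce1l followed the second maximum of Syce1 and not the first, with 139 UMIs in pachytene-like cells against 13 in early-prophase-like cells, 9.40-fold (5.32 to 18.1), and its maximum of 33.5 CPM in cluster 9. Sycp2l, which belongs to the oocyte axis in mice, had 7 UMIs in all germ cells.

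**Figure D5:**
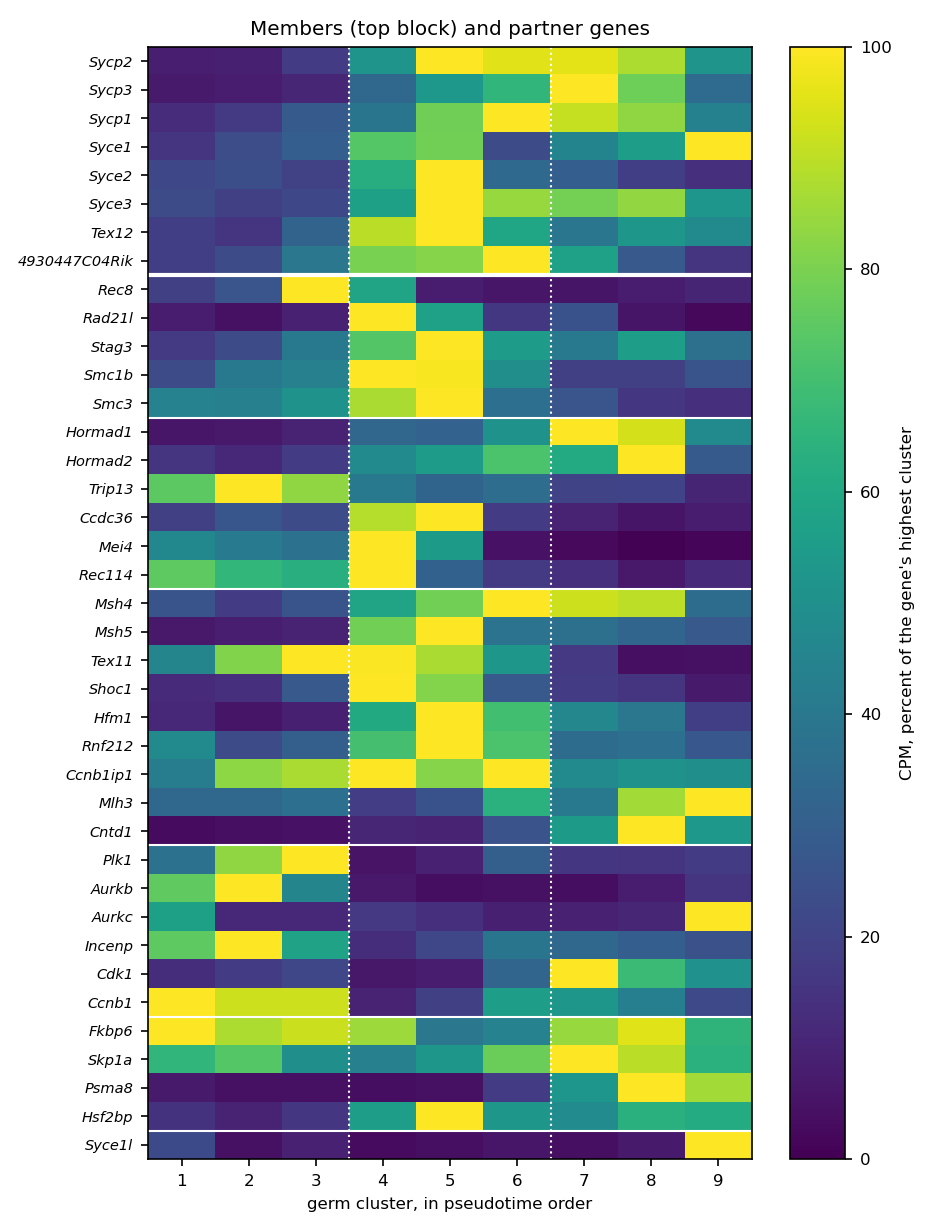
CPM of the 8 members (top block) and of partner genes with at least 20 UMIs in germ cells (blocks below, in order cohesins, HORMA domain group, crossover factors, disassembly kinases, other synapsis factors and the paralogue Syce1l) in the 9 germ clusters in pseudotime order, as a percent of each gene's own highest cluster (colour scale 0 to 100). Cohesins are brightest in clusters 3 to 5, Cdk1, Psma8, Cntd1 and Hormad1 in clusters 7 and 8, and Syce1l in cluster 9.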

How the data were processed

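The unit of all values is the UMI count per gene and barcode of the testis library of the Znhit1 knockout at day 35. The authors deposited these counts as a sparse matrix, and per the file headers the software was Cell Ranger 7.1.0. STAR and the mm10 genome are named in the submitters' processing notes. Filters beyond cell calling are not given in the sources used here, and the lowest barcode held 500 UMIs.

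A barcode was kept if it had 500 or more genes, 1000 or more UMIs and no more than 10% of UMIs from mitochondrial genes (8121 of 15306, of 72459160 UMIs in all). Scrublet called 265 of them doublets (3.26%), which were removed, leaving 7856. Clustering used scanpy 1.11.5 with 3000 variable genes, 30 principal components, 15 neighbours and Leiden resolution 1. The 8 members, the partner genes, and X, Y and mitochondrial genes were left out of clustering and of the diffusion pseudotime. A cluster was named by its best mean log2 ratio to the other cells over a marker list (at least 0.5, with at least 3 markers at 2-fold), and clusters with under 33% of the median UMI count and no own marker among their leading genes stayed unnamed. The score and its limits were settled after the clusters had been seen. Of 22 clusters, 20 were named. Names rebuilt in this way may differ from those of the study.

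Counts were summed per cluster and class and divided by the summed total (CPM). Intervals are exact at 95% (Poisson for levels, conditional binomial for ratios). They cover counting error only, and the ratio script was tested on simulated data. A gene entered a comparison with 20 or more UMIs summed over its classes, and at least 2-fold counted as a call. Shares of cells were taken after thinning each cell to 1000 UMIs, a depth every kept cell reached. For likeness, genes needed at least 50 CPM in their highest bin, and the pseudocount was 10 CPM. Free RNA was not subtracted, except as an alternative.

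All 8 members are named, and a partner gene could be named if it had at least 20 germ-cell UMIs. The members and lists were chosen with earlier results of these data known. Alternatives covered cell filters, doublets, resolution, variable genes, genes used to cluster, cell weighting, bins, scale and free RNA. Promoter windows come from RefSeq (GRCm38.p6) and gene coordinates from GENCODE (32158 of 32285 IDs matched). Statistics used Python 3.11.15, numpy 2.4.6, scipy 1.17.1 and pandas 2.3.3.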

Additional observations from a re-analysis of the deposited data

How the results depend on the processing

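No paired analysis was possible because each group has 1 library and counts of 1 were used. The counts of 8 members higher in early prophase, 2 lower in pachytene and 6 peaking before pachytene were equal to those reported under 7 other settings of cell filters, doublets, clustering and cell weighting, with 7 to 13 germ clusters found. Over all genes the shares were 12.4%, 26.7% and 70.5% at the main setting, so the counts of 2 and 6 were near them. Of the 16 log2 ratios, 14 to 16 kept their sign under each of these and with free RNA subtracted. UMIs per cell, added after seeing the data, changed all 3 counts. With them 6 members were higher in early prophase, where 4.80% of all genes were, and 0 were lower in pachytene, where 5.43% were. Peaks before pachytene were then found for 2, where 47.7% of all genes had theirs. On that scale 13 of 16 ratios kept their sign. With pachytene taken as the last cluster alone, also added later, 6 of 8 ratios kept theirs, all but those of Sycp1 and Sycp3. The cause was not tested. Precision is limited by depth for Syce1, Rec8, Aurkc, Syce1l and Mei4, and no setting replaces replicate libraries.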

Other observations

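Barcodes outside the germ clusters also carried the 8 genes. The 3592 deposited barcodes under 1000 UMIs, which entered no comparison, held 768 CPM of Sycp1, 717 CPM of Sycp3 and 102 CPM of Syce1, at 0.557, 0.519 and 0.0738 UMIs per barcode. A Sertoli-like cluster of 648 shallow cells, with a median of 1243.5 UMIs, was at 921 CPM of Sycp1 and 992 CPM of Sycp3. The 77 Sertoli-like cells of a deeper cluster, with a median of 8590 UMIs, were at 137 CPM of Sycp1 and 73.5 CPM of Sycp3. An unnamed cluster of 120 cells, with a median of 1280 UMIs and late spermatocyte markers as its best score, was at 1699.7 CPM of Sycp1 and 1012 CPM of Sycp3.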
